A study of Mus musculus with 6 samples.

Results

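Keratins and mesothelial markers were measured in mouse bone marrow-derived macrophages (BMDMs) that had been co-cultured with ID8 cells. The 10 genes, fixed by name, were the keratin genes Krt7, Krt8, Krt18 and Krt19 and the mesothelial genes Wt1, Msln, Muc16, Upk3b, Gpm6a and Lrrn4, out of 54532 genes in the expression table. ID8 is an ovarian cancer line that arose from the ovarian surface epithelium of a female mouse, and its cells had received 40 µM cisplatin, a DNA-crosslinking platinum drug, or phosphate-buffered saline (PBS) before they met the BMDMs. Each condition gave 3 libraries (labelled C for cisplatin and W for PBS), and all 6 were co-cultures labelled as BMDM, so the pretreatment was the one difference that the labels name. Per the study's methods the marrow cells were monocytes of young C57BL/6 mice that were collected again after the co-culture. The sex of those mice, the time with the drug and the contact between the cell types are not given in the sources used here, and the methods speak of biological replicates without saying whether these were separate cultures or animals, so p-values measure the spread between these libraries.

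Keratins are the intermediate filament proteins of epithelial cells. A type II keratin (Krt7, Krt8) pairs with a type I keratin (Krt18, Krt19) to build a filament, and simple epithelia, including the mesothelium that lines the peritoneum and covers the ovary, use Krt8 with Krt18 and Krt19. Mesothelial cells also carry mesothelin (Msln), the mucin CA125 (Muc16) that mesothelin binds, uroplakin 3B (Upk3b), the membrane glycoprotein Gpm6a, the leucine-rich repeat protein Lrrn4 and the zinc-finger transcription factor Wt1. None of them is a usual marker of macrophages.

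The promoters of the 3 keratins that lie together on chromosome 15 are shown because Krt8 and Krt18 were high and fell together, whereas Krt7 was close to 0 in all libraries. Each run holds the 250 bases before the RefSeq start of the gene and the first 30 after it, 5′ to 3′ on the gene's strand (RefSeq, GRCm38.p6). For these 3 genes the RefSeq start is not that of the expression table's gene model. Krt7 is chr15:101412153-101412432 on the plus strand, Krt8 is chr15:102004313-102004592 on the minus strand and Krt18 is chr15:102027966-102028245 on the plus strand. Capitals mark matches to the motifs searched.
Krt8: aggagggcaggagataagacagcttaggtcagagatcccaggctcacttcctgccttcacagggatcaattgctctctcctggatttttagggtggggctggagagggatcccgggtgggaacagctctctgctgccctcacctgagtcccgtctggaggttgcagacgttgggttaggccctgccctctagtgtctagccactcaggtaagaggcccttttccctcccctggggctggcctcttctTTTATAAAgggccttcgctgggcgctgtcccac
Krt18: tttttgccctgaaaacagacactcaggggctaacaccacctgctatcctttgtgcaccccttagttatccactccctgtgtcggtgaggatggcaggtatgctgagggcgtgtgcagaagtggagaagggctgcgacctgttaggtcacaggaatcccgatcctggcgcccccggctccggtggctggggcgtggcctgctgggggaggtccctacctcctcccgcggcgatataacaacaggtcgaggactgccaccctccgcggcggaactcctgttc
Krt7: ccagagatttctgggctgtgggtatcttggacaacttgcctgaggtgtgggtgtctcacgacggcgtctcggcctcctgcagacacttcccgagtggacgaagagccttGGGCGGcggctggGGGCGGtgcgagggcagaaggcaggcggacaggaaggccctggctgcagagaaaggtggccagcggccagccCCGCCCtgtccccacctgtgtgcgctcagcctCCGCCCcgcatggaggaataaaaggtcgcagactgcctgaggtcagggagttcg
The motifs, searched on both strands, were the TATA box (TATAAA, in 13.1% of the 32851 promoter windows of this length), the GC box (GGGCGG, 34.7%), the CCAAT box (CCAAT, 36.1%), the AP-1 site (TGANTCA, 7.46%) and a site bound by WT1 and EGR1 (GCGTGGGNG, 1.82%). The Krt8 window held overlapping TATA box letters on both strands, from 3 bases before the RefSeq start onwards. The Krt7 window held 4 GC boxes and no other match, and the Krt18 window held none of the 5 motifs. Promoter windows were found for 7 of the 10 genes, and those of Upk3b, Muc16 and Lrrn4 held no match. One of the 2 Gpm6a windows held TATA box letters. Krt19, Wt1 and Msln had no entry. The letters are a description of these windows and are not shown to be sites in use.

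Expression was given as FPKM, a read density scaled to both gene length and library depth, so that levels of different genes can be compared. Between 15776238 and 17924686 reads per library could be recovered from these values. Gene coordinates are those of the table, on the mm10 build. Libraries correlated with r between 0.984 and 0.989 within a group and between 0.871 and 0.877 across groups on log2(FPKM + 1), so no library stood apart from its own group. Macrophage markers were present in all 6 libraries, and their values are given beside the results below. No library of ID8 cells alone or of BMDMs alone was analysed here.

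Most of the keratin and mesothelial transcripts were abundant after co-culture with PBS-treated ID8 cells and far lower after co-culture with cisplatin-treated cells. Msln fell less, and Krt7, Muc16 and Lrrn4 were below 1 FPKM in both groups. The 10 genes together took from 0.206% to 0.219% of the reads in the PBS libraries and from 0.0357% to 0.0385% in the cisplatin libraries. The test took in 13441 genes, 7 of the 10 among them, that reached 1 FPKM in 3 or more libraries. Those 7 reached 1 FPKM in every library. A gene was called at a Benjamini-Hochberg adjusted p under 0.05 (limma, over all genes tested) with a difference of 1 or more, in either direction, on the log2(FPKM + 1) scale, on which all log2 fold changes are given and which understates those of low genes. Of the 7, 6 were called lower with cisplatin, where 11.3% of all tested genes were, and 0 were called higher, where 4.67% were. At the adjusted p alone, 7 of 7 were lower, against 35.1% of all tested genes. Each of the 7 also had all its cisplatin values below all its PBS values, a pattern seen in 37.2% of tested genes (35.2% had the opposite one). The median log2 fold change of the 7 was -2.60, beside -0.0011 over all tested genes. In bulk RNA, fewer cells of a type and less RNA per cell cannot be told apart.

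**Figure D1:**
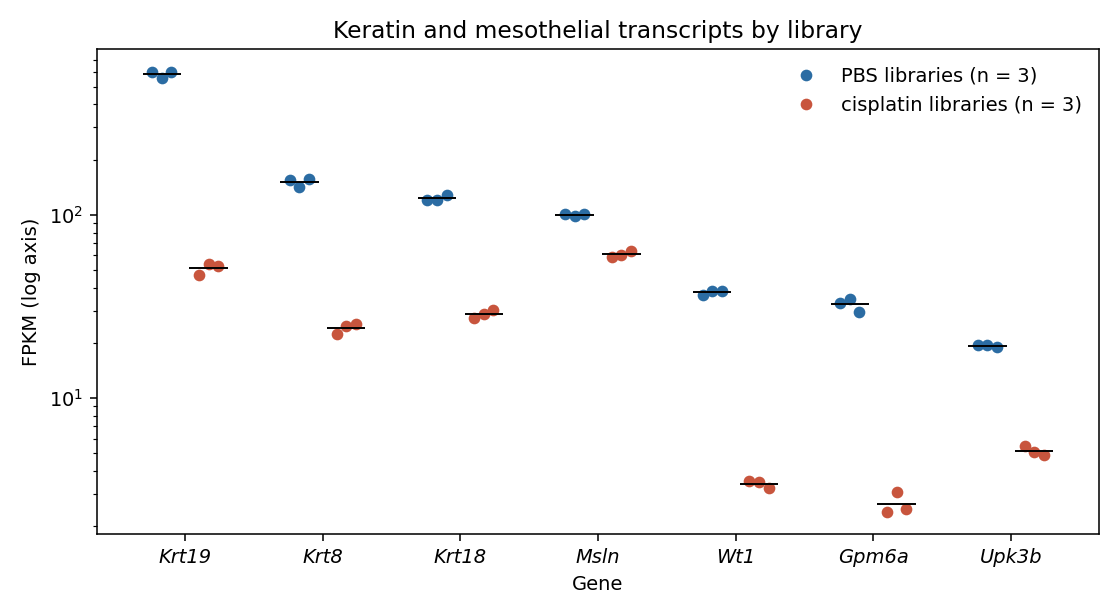
FPKM (log axis) of the 7 genes that reached 1 FPKM, in each of the 3 PBS libraries (blue) and 3 cisplatin libraries (red), with the group mean as a black line. For every gene the red points lie below the blue ones. The gap is widest for Krt19, Wt1 and Gpm6a and narrowest for Msln, which is the highest of the 7 in the cisplatin libraries.

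Krt19, which encodes the smallest keratin and is a type I partner in simple epithelia, was the most abundant of the 10 genes with PBS. Krt19 (ENSMUSG00000020911, minus strand of chromosome 11, 100140810 to 100148665) was at 603, 554 and 605 FPKM in the PBS libraries and at 46.8, 54.0 and 52.5 FPKM in the cisplatin libraries. The groups did not overlap, and the lowest PBS value stood far above the highest cisplatin value. The mean level was thus 11.5-fold lower with cisplatin, with a log2 fold change of -3.50 (SE 0.063, limma adjusted p = 7.18e-08). Ranked by mean FPKM among the 54532 genes, Krt19 stood at place 39 with PBS and at place 908 with cisplatin.

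Krt8 encodes the type II keratin of simple epithelia. Krt8 (ENSMUSG00000049382, minus strand of chromosome 15, 101996698 to 102004482) was at 156, 141 and 157 FPKM with PBS and at 22.4, 24.6 and 25.5 FPKM with cisplatin, again without overlap. Its mean was 6.26-fold lower (log2 fold change -2.60, SE 0.063, limma adjusted p = 1.62e-07). Krt8 overlaps the gene Gm36026 on the other strand, which had at most 14 reads in a library.

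Krt18 encodes the usual type I partner of the Krt8 protein, and the 2 genes point away from each other with 23697 bases between them. Krt18 (ENSMUSG00000023043, plus strand of chromosome 15, 102028180 to 102032027) was at 121, 121 and 128 FPKM with PBS and at 27.3, 28.7 and 30.04 FPKM with cisplatin. Its groups were separate as well, and its mean was 4.29-fold lower (log2 fold change -2.07, SE 0.046, limma adjusted p = 1.15e-07). Krt8 was above Krt18 in all 3 PBS libraries and below it in all 3 cisplatin libraries.

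The table names 55 keratin genes, of which 5 passed the filter and 19 were at 0 in all libraries. Krt8, Krt18 and Krt19 together made up from 98.4% to 98.6% of the summed keratin FPKM with PBS and from 92.9% to 94.4% with cisplatin. Within that sum the share of Krt19 was from 66.8% to 67.6% with PBS and from 45.1% to 46.9% with cisplatin. The share of Krt18 was from 13.6% to 14.6% with PBS and from 24.9% to 26.3% with cisplatin. The keratins that were left with cisplatin were a more even mixture than those seen with PBS.

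Wt1 encodes a transcription factor of the mesothelium, kidney and gonad. Wt1 (ENSMUSG00000016458, plus strand of chromosome 2, 105126529 to 105173616) was at 36.5, 38.6 and 38.3 FPKM with PBS and at 3.53, 3.48 and 3.22 FPKM with cisplatin. The PBS values lay close together, as did the cisplatin values, and the means differed 11.1-fold (log2 fold change -3.14, SE 0.048, limma adjusted p = 5.39e-08). The antisense gene Wt1os starts with 18 bases between it and the start of Wt1 and runs the other way on the minus strand. Wt1os was at 4.07 ± 0.271 FPKM with PBS and at 0.431 ± 0.0352 FPKM with cisplatin (SD, n = 3), a log2 fold change of -1.82 (limma adjusted p = 2.05e-06), and it passed the filter only through the PBS libraries. Whether reads were counted by strand is not given in the sources used here.

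Gpm6a encodes a membrane glycoprotein that is best known from neurons and is also a mesothelial surface marker. Gpm6a (ENSMUSG00000031517, plus strand of chromosome 8, 54954843 to 55060871) was at 33.1, 34.5 and 29.6 FPKM with PBS and at 2.38, 3.07 and 2.49 FPKM with cisplatin. It was 12.3-fold lower in the mean (log2 fold change -3.20, SE 0.089, limma adjusted p = 2.72e-07) and had the fewest reads of the 7 tested genes with cisplatin, from 130 to 162 in a library. It overlaps 5 other genes on its own strand, with at most 3 reads each in a library.

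Upk3b encodes a uroplakin that mesothelium shares with urothelium. Upk3b (ENSMUSG00000042985, plus strand of chromosome 5, 136038496 to 136046487) was at 19.4, 19.5 and 18.9 FPKM with PBS and at 5.48, 5.11 and 4.87 FPKM with cisplatin, so it fell 3.74-fold in the mean (log2 fold change -1.72, SE 0.051, limma adjusted p = 3.48e-07). The groups were separate, by less than those of Wt1 or Gpm6a.

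Msln, which encodes mesothelin, a surface protein of mesothelium and of ovarian cancers, went the least far of the 7 tested genes. Msln (ENSMUSG00000063011, minus strand of chromosome 17, 25748614 to 25754327) was at 100.5, 98.4 and 100.8 FPKM with PBS and at 59.2, 60.6 and 63.3 FPKM with cisplatin. The groups did not overlap, but the means differed only 1.64-fold, and the log2 fold change of -0.70 (SE 0.036, limma adjusted p = 4.18e-06) fell short of the fold change threshold. Behind the 3 keratins with PBS, Msln was the most abundant of the 10 genes with cisplatin. It held from 9.35% to 9.77% of their summed FPKM with PBS and from 33.7% to 35.4% with cisplatin, while Krt19 went from between 55.0% and 56.4% to between 28.0% and 30.03%.

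The order of the levels thus differed between the groups. With PBS it was Krt19, Krt8, Krt18, Msln, Wt1, Gpm6a and Upk3b, and with cisplatin it was Msln, Krt19, Krt18, Krt8, Upk3b, Wt1 and Gpm6a. In both orders, no neighbours among these 7 genes overlapped in their 3 values.

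To ask whether the genes fell by like or unlike factors, each was divided by Krt18 in the same library, which removes any scaling of the library. Krt19 was at 4.98, 4.59 and 4.74 times the Krt18 level with PBS and at 1.71, 1.88 and 1.75 times with cisplatin, a change in the log2 ratio of -1.42. Krt8 went from 1.29, 1.17 and 1.23 times the level of Krt18 to 0.82, 0.86 and 0.85 times (-0.54 on the log2 scale). Even this pair of filament partners was thus not in the same proportion in the 2 groups. The log2 ratio to Krt18 changed by -1.37 for Wt1 and by -1.52 for Gpm6a, against SDs among libraries of up to 0.14 and 0.19, and both differed from the change of Krt19 by less than those SDs.

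Msln and Upk3b went the other way. Msln was at 0.83, 0.82 and 0.79 times the Krt18 level with PBS and at 2.17, 2.11 and 2.11 times with cisplatin (1.39 on the log2 scale). Upk3b was between 0.148 and 0.161 times with PBS and between 0.162 and 0.201 times with cisplatin. Its change in the log2 ratio was 0.20, close to the SD of 0.15 among the cisplatin libraries, and without cisplatin replicate 1 it was 0.12. For all 6 ratios the groups did not overlap, and each gave p = 0.1 in a two-sided exact permutation test over libraries, which is the smallest p that 3 against 3 allows (adjusted p = 0.1 over the 6).

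**Figure D2:**
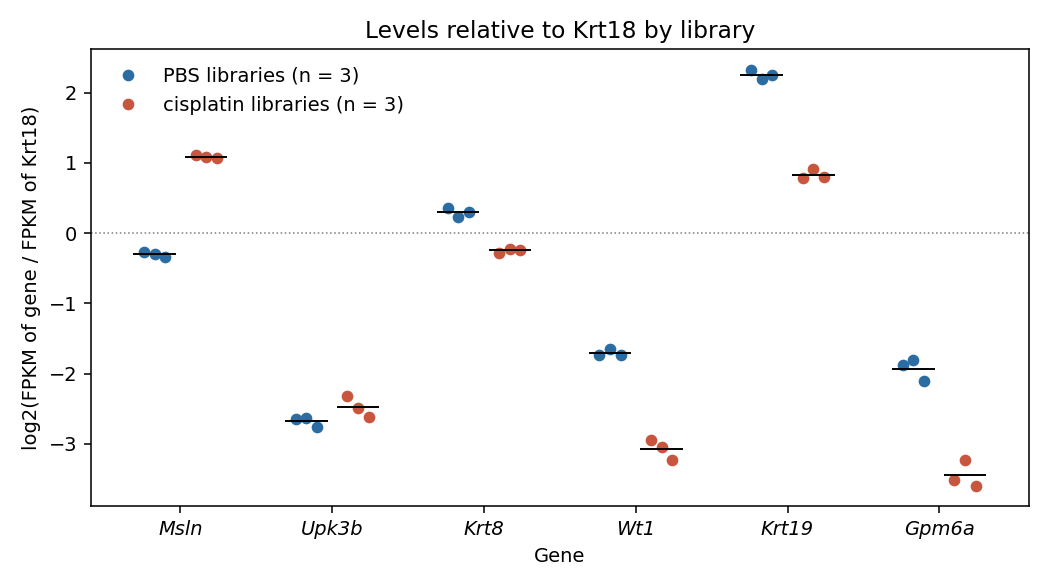
Level of 6 genes relative to Krt18 in the same library, as log2 of the ratio of FPKM values, for 3 PBS (blue) and 3 cisplatin (red) libraries with group means as black lines. The dotted line marks equality with Krt18. Msln moves from below to above the line, Krt8 from above to below it, and Krt19, Wt1 and Gpm6a drop by similar distances.

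The other 3 genes were below 1 FPKM in all libraries and are described by their recovered reads, with exact binomial 95% intervals of the ratio of reads that cover counting error only. Muc16 (ENSMUSG00000109564, minus strand of chromosome 9, 18495455 to 18674530) had 34, 55 and 50 reads in the PBS libraries and 2, 2 and 0 in the cisplatin libraries. The groups did not overlap, and 139 reads stood against 4, which for equal depth was a 33.5-fold difference (interval 12.8 to 125). Spread over a gene model of 26350 bases, these reads gave 0.11 ± 0.032 FPKM with PBS. In a limma fit without the filter on low values its adjusted p was 0.0149, with a log2 fold change of -0.15 that the pseudocount of 1 holds near 0.

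Krt7 encodes a type II keratin that many simple epithelia carry. Krt7 (ENSMUSG00000023039, plus strand of chromosome 15, 101411043 to 101430313) had 5, 11 and 7 reads with PBS and 6, 0 and 3 with cisplatin, and the groups overlapped. The 23 reads against 9 gave a ratio of 2.46 (interval 1.10 to 6.05), and the limma fit without the filter gave an adjusted p of 0.283. Krt7 overlaps the gene Gm671 on the other strand, which had at most 4 reads in a library, so the source of single reads is uncertain.

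Lrrn4 (ENSMUSG00000043110, minus strand of chromosome 2, 132868305 to 132880891) had 1, 15 and 3 reads with PBS and 4, 11 and 4 with cisplatin. The totals of 19 and 19 reads gave a ratio of 0.96 (interval 0.483 to 1.92, adjusted p = 0.988 without the filter), so a difference was not detectable at this depth. Against the label of ID8 markers, Krt7 and Lrrn4 were thus hardly detected in either group. Muc16 had more reads than these with PBS (139) and fewer with cisplatin (4), and it too stayed below 1 FPKM.

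**Figure D3:**
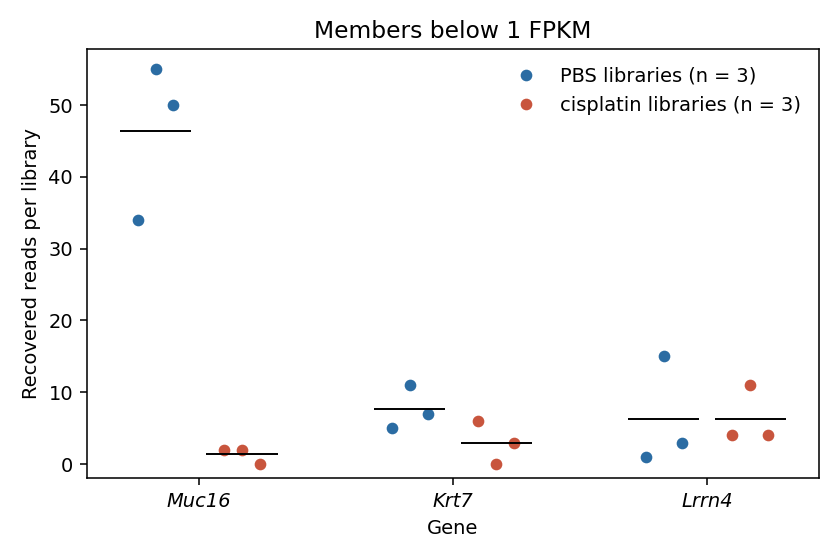
Reads recovered per library for the 3 genes below 1 FPKM, with PBS (blue) and cisplatin (red) libraries and group means as black lines. Muc16 lies between 34 and 55 reads with PBS and at 2 or fewer with cisplatin, whereas the groups overlap for Krt7 and Lrrn4.

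Genes that work beside the 10 were then read from lists in the same fit. Of 17 keratin-filament partners (plakins, desmosome proteins and other filament genes), 15 were tested, 9 were called lower and 0 higher (11.3% and 4.67% of all tested genes), and the median change was -1.20 (log2). Of the 9, 4 (Pkp1, Nes, Eppk1 and Pof1b) were below 1 FPKM in every cisplatin library and so passed the filter only through the PBS libraries, where they were high and could only be lower with cisplatin. Without these 4, 5 of 11 were called lower, beside the same 11.3%, and the median was -0.66. The plakophilin gene Pkp2 was at 10.3 ± 0.542 FPKM with PBS and at 0.938 ± 0.116 FPKM with cisplatin (SD, n = 3), a log2 fold change of -2.54 (limma adjusted p = 2.87e-07). Although counted among those 5, Pkp2 was at 0.932, 1.06 and 0.825 FPKM in the cisplatin libraries. It too needed the PBS libraries, where it was high, to pass the filter. Periplakin (Ppl, log2 fold change -2.10), plakoglobin (Jup, -2.04) and the plakophilin gene Pkp1 (-1.64) were also called lower, and all of them tie keratins to cell junctions. Vimentin (Vim), the filament protein of mesenchymal cells and macrophages, was at 285 ± 6.41 FPKM with PBS and at 260 ± 2.38 FPKM with cisplatin, short of the fold change threshold (log2 fold change -0.14, limma adjusted p = 0.00649).

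Of 17 further keratin genes, 2 were tested, 1 was called lower (11.3% of all tested genes) and 6 were at 0 in all libraries. Krt80, an epithelial type II keratin, fell to 1.43 ± 0.119 FPKM from 9.27 ± 0.253 FPKM with PBS (SD, n = 3), a log2 fold change of -2.08 (limma adjusted p = 3.56e-07). Krt14, a basal-cell type I keratin, was at 1.16 ± 0.115 FPKM with PBS and at 2.57 ± 0.381 FPKM with cisplatin and was not called (log2 fold change 0.72, limma adjusted p = 0.000792).

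Of 21 further mesothelial and tumour-side genes, 13 were tested, 7 were called lower and 1 higher (11.3% and 4.67% of all tested genes), and the median change was -1.05 (log2). Podxl, not called, passed the filter only through the PBS libraries, and without it 7 of 12 were called lower and the median was -1.11. The transcription factor gene Gata4 (log2 fold change -2.79) and the tight junction gene Tjp1 (-2.60) fell the furthest. The matrix protein gene Sparc (231 ± 6.21 FPKM with PBS, 49.7 ± 2.30 FPKM with cisplatin, -2.20) and Igfbp6, which encodes a secreted binding protein of insulin-like growth factors (91.5 ± 10.1 FPKM with PBS, 19.2 ± 0.929 FPKM with cisplatin, -2.19), both used by the study as tumour cell markers in other data, fell as well (SD, n = 3, limma adjusted p = 8.73e-08 and adjusted p = 1.02e-06). Igfbp5, named with them, had at most 0.0196 FPKM in any library. Thbd, which encodes thrombomodulin, a receptor also carried by endothelial and myeloid cells, rose (log2 fold change 1.32, limma adjusted p = 1.84e-05). Among 19 relatives and binding partners of the mesothelial genes, 6 were tested and 2 were called lower (11.3% of all tested genes), Wt1os and Lgals3bp (log2 fold change -1.37), with a median of -0.75. Wt1os and Wtip passed the filter only through the PBS libraries, and without them 1 of 4 was called lower, beside the same 11.3%. The mucin gene Muc1, among those 4 and not called, was at 0.852, 0.883 and 1.06 FPKM with cisplatin. It too needed the PBS libraries to pass the filter.

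**Figure D4:**
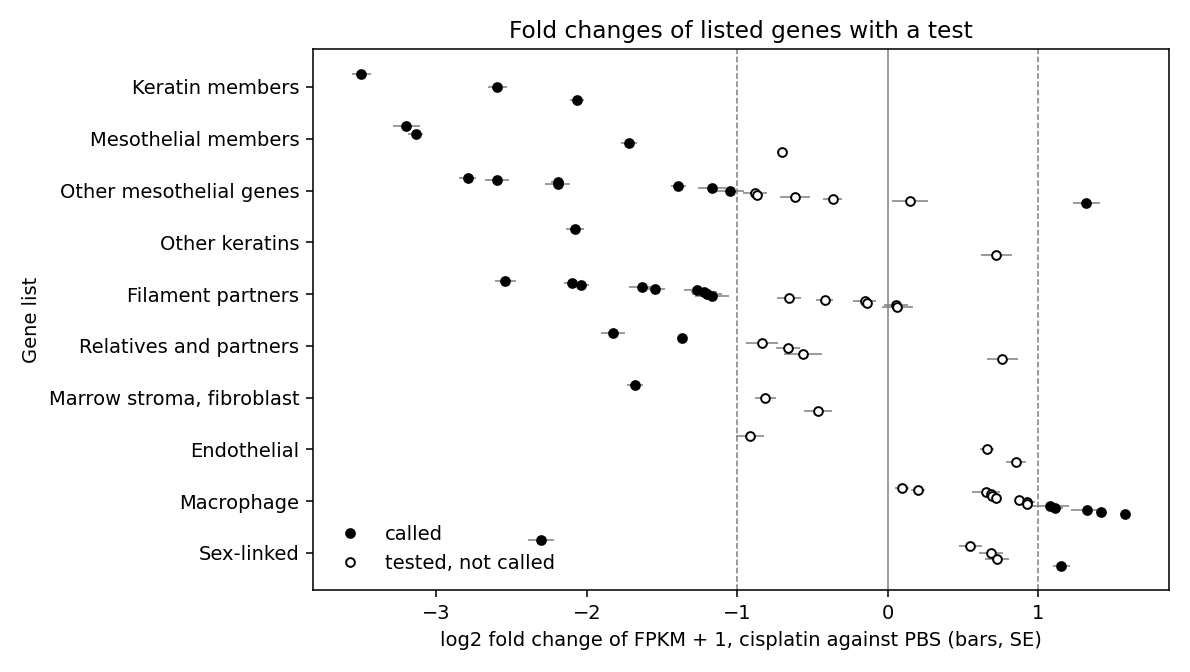
Log2 fold change on FPKM + 1, cisplatin against PBS, of each tested gene (points, with SE as bars) in the keratin and mesothelial lists and in lists of other cells. Filled points were called, open points were not, and dashed lines mark the threshold of 1 in either direction. All 7 keratin and mesothelial members lie left of 0, and all 14 tested macrophage markers lie right of it.

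Macrophage markers and sex-linked genes were read from the same fit. Of 15 macrophage markers 14 were tested, and all 14 were higher with cisplatin, 13 of them without overlap (35.2% of all tested genes), with 5 called (4.67%) and a median of 0.90 (log2). Their summed level was from 2229 to 2277 FPKM with PBS and from 5013 to 5207 FPKM with cisplatin, and Lyz2 was by far the largest part of it in both groups. The lysozyme gene Lyz2 went from 1161 ± 10.8 to 3459 ± 80.4 FPKM, Itgam (CD11b) from 34.96 ± 0.87 to 95.2 ± 3.30 FPKM and Csf1r, the receptor for macrophage colony-stimulating factor, from 44.0 ± 0.62 to 84.5 ± 2.37 FPKM (SD, n = 3, log2 fold changes 1.57, 1.42 and 0.92, the last short of the threshold). Mertk was called higher at low levels, 0.292 ± 0.149 FPKM with PBS and 1.72 ± 0.176 FPKM with cisplatin (SD, n = 3, log2 fold change 1.08, limma adjusted p = 0.000236), but passed the filter only through the cisplatin libraries, and without it 4 of 13 were called higher, beside the same 4.67%. Aif1, among those 4, was at 0.800 FPKM in PBS replicate 3, so it too needed the cisplatin libraries to pass the filter. Cd163, not tested, was at 0.301 ± 0.0907 FPKM with PBS and at 0.792 ± 0.0924 FPKM with cisplatin. None of the 15 was at 0 in any library. Xist, the RNA that silences an X chromosome in female cells, was 5.48-fold lower with cisplatin. Mean levels of Uty, Kdm5d, Eif2s3y and Ddx3y, all on the Y chromosome, were from 1.66-fold to 2.37-fold higher, and of these only Ddx3y was called. The part of a different mixture of cells in the keratin and mesothelial changes was not tested. For the keratin and mesothelial genes, RNA of ID8 cells and of BMDMs cannot be told apart in these libraries.

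By likeness of pattern, the 5 genes nearest to the mean of the 7, among other tested genes with a mean of at least 5 FPKM over the 6 libraries, were Oas3, Mal2, Axl, Tspan9 and Arhgef17 (Euclidean distance from 0.0424 to 0.133 over the 6 centred log2 values). Their log2 fold changes ran from -2.48 to -2.37. The 7 genes lay from 0.259 to 2.10 from their own mean, measured in the same way. With 6 libraries in 2 groups, the difference between the groups makes up most of such a pattern.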

How the data were processed

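RNA of 6 co-culture libraries (3 cisplatin, 3 PBS, grouped by the treatment label) was poly-T selected and sequenced. The authors deposited gene-level FPKM values. Their processing notes name fastp, HISAT2 2.0.5, featureCounts 1.5.0-p3 and mm10, whereas the paper's methods name LifeScope for alignment and counting and DESeq2 for testing. How multi-mapped or stranded reads were counted is not given in the sources used here. Coordinates are those of the table, and 9 of the 10 genes had the same ones in GENCODE M21 (GRCm38).

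FPKM times gene length came out as whole multiples of 1 read for 100% of values worth fewer than 200 reads (tolerance 0.01 reads), and these reads gave depth and counting error. FPKM values are not counts, so log2(FPKM + 1) was fitted with limma 3.58.1 under R 4.3.3 (group only, eBayes with a trend) over 13441 genes with at least 1 FPKM in at least 3 libraries. Ratios to Krt18 used FPKM without a pseudocount. The procedure was tested on simulated data. The members and lists were chosen with earlier results of these data known, so they are no independent support. Named beside the 10 genes were at most 4 called genes of a list with the largest changes in each direction, a few fixed genes (Igfbp5, Igfbp6, Sparc, Csf1r, Itgam, Lyz2, Vim, sex-linked genes) and the 5 genes nearest in pattern among those with a mean of at least 5 FPKM. Krt14, Mertk, Cd163, Nes, Eppk1, Pof1b, Wtip, Muc1, Podxl, Tek, Pecam1, Vwf, Col1a1, Col1a2, Col3a1 and Cldn5 are named outside this rule, with their values known.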

Additional observations from a re-analysis of the deposited data

How the results depend on the processing

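The calls were repeated under 16 other settings, namely 0.1 as the pseudocount, a filter dropped or raised to 5 FPKM, scaling by TPM, quantiles or median of ratios, limma voom on the recovered reads, the replicate number as a block, eBayes without a trend, the adjusted p alone, and 6 fits that each left out a library. Of the 7 tested genes 6 were called lower in all of them except the adjusted p alone, which gave 7, and 0 were called higher. The replicate block likewise gave 6, and same-numbered libraries did not deviate together (correlations of their deviations from -0.104 to -0.0235). No direction reversed. Krt19 ranged from -3.54 to -3.37, Wt1 from -3.43 to -3.02, Gpm6a from -3.57 to -3.08, and Msln from -0.73 to -0.62. Without the filter, which adds Krt7, Muc16 and Lrrn4, the median over the genes was -1.89 in place of -2.60. With a library left out, the change in the log2 ratio to Krt18 ran from 0.12 to 0.27 for Upk3b, from -0.58 to -0.51 for Krt8 and from 1.37 to 1.41 for Msln, while scaling a library cannot change a ratio within it. Depth limits Krt7, Lrrn4 and Muc16 alone, whose values rest on few reads.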

Other observations

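Of 12 marrow stroma and fibroblast markers, 3 were tested, and 1 was called lower (11.3% of all tested genes), the decorin gene Dcn, a matrix proteoglycan (54.1 ± 2.62 FPKM with PBS and 16.2 ± 0.844 FPKM with cisplatin, SD, n = 3, a change of -1.68 on the log2 scale, limma adjusted p = 4.89e-07). Of the collagen genes in the list, Col1a1 was at 2.97 ± 0.390 FPKM with PBS and at 1.87 ± 0.103 FPKM with cisplatin (log2 fold change -0.47, limma adjusted p = 0.00361, short of the fold change threshold), and Col1a2 and Col3a1 were at or below 0.0633 FPKM in every library. Of 7 endothelial markers, 3 were tested and 0 were called in either direction by limma, beside 11.3% lower and 4.67% higher of all tested genes (at the adjusted p alone, Tek was lower, and Pecam1 and Vwf were higher), and Cldn5 was at 0 throughout. Summed levels went from between 60.6 and 65.0 FPKM to between 20.5 and 22.9 FPKM for the stromal list, and from between 13.4 and 14.2 FPKM to between 18.9 and 20.2 FPKM for the endothelial list. Dcn made up most of the stromal sum in both groups, so that sum mainly repeats the change of Dcn.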
